A study of Mus musculus with 10 samples.

Results

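The genes of the constitutive proteasome were followed in mouse embryonic fibroblasts (MEFs) that received interferon-beta (IFN-β). They were taken by symbol from the deposited table: every gene named Psma, Psmb, Psmc, Psmd, Psme, Psmf or Psmg with a number, except the interferon-induced Psmb8, Psmb9, Psmb10, Psme1 and Psme2. This gave 43 of 23370 gene symbols, each measured on the transcript with the highest mean RPKM (reads per kilobase of transcript, scaled to library depth). Of the 43, 41 reached 1 RPKM in at least 2 of the 10 libraries, which was the condition for testing, and each of these 41 was above 1 RPKM in every library. The other 2 were Psma8, the alpha subunit of the testis proteasome, with 0 RPKM in all 10 libraries, and Psmb11, the beta subunit of the thymus proteasome, with at most 0.0190 RPKM.

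The proteasome is the protease that degrades proteins marked with ubiquitin. Its core particle, the 20S proteasome, is a barrel of stacked rings in which the alpha subunits form the gate and 3 of the beta subunits cut, while the 19S cap, built of ATPases and non-ATPase subunits, binds, unfolds and feeds in the substrate. Interferons are known to induce alternative catalytic subunits that replace the constitutive ones in newly assembled particles, the immunoproteasome, and the alternative activator Psme1/Psme2.

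Total RNA was sequenced from MEFs of C57BL/6 background. All 10 libraries carried the same knock-in, in which a cDNA of the tagged histone H3.3-HA stood in place of the H3f3b locus. A pretreated arm, exposed to interferon beforehand, and a naive arm were each sampled at 0, 1, 2, 4 and 6 h, read here as hours after 100 U/ml IFN-β, with 1 library per arm and hour. How the pretreatment was done (dose, length, washout) and whether libraries came from separate cultures or embryos is not stated in the labels. The labels name no unstimulated library after 0 h, so a change from 0 h cannot be told apart from time in culture. Depth was between 83.9 and 268 M counts (M, mega) in the pretreated arm and between 94.4 and 261 M in the naive arm. The 9 fibroblast markers, Col1a1 and Vim among them, summed to between 9233 and 12175 RPKM in pretreated cells and between 10890.3 and 13459.5 RPKM in naive cells, while the leukocyte marker Ptprc was at 0.00300 RPKM or less and the 6 macrophage markers together at 4.13 RPKM or less. The ribosomal precursor Rn45s took 3.90% and 2.85% of the counts in the pretreated 0 and 1 h libraries, against 0.974% to 1.51% in the other 8.

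The constitutive proteasome was expressed in every library, with mean levels of its 41 tested genes from 5.10 to 179 RPKM. The summed level of its genes was 2580.5, 2591, 2651, 2370.4 and 2769.8 RPKM in pretreated cells at 0, 1, 2, 4 and 6 h, against 2349.8, 2335, 2524, 2355 and 2551 RPKM in naive cells. At each hour the pretreated sum was the higher, by least at 4 h, although the ranges of the arms overlapped. The highest sum was that of the pretreated 6 h library. These genes made up between 0.610% and 0.721% of all RPKM of a library. Over the 10 libraries the highest level of a gene was 1.43 times its lowest in the median of the 41 (on RPKM + 1), against 1.59 times in all 12168 genes tested and 17.4 times in the 5 immunoproteasome genes. Psmg4 alone of the 41 spanned 2-fold or more, as did 22.0% of the genes tested. By mean level Psmb1 came first at 179 RPKM, followed by Psmb4 at 122, Psmb7 at 119 and Psmb2 at 117 RPKM, all of the beta ring. These followers overlapped each other across libraries. Psmg3, an assembly chaperone, was lowest of the 41 at 5.10 RPKM.

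**Figure D1:**
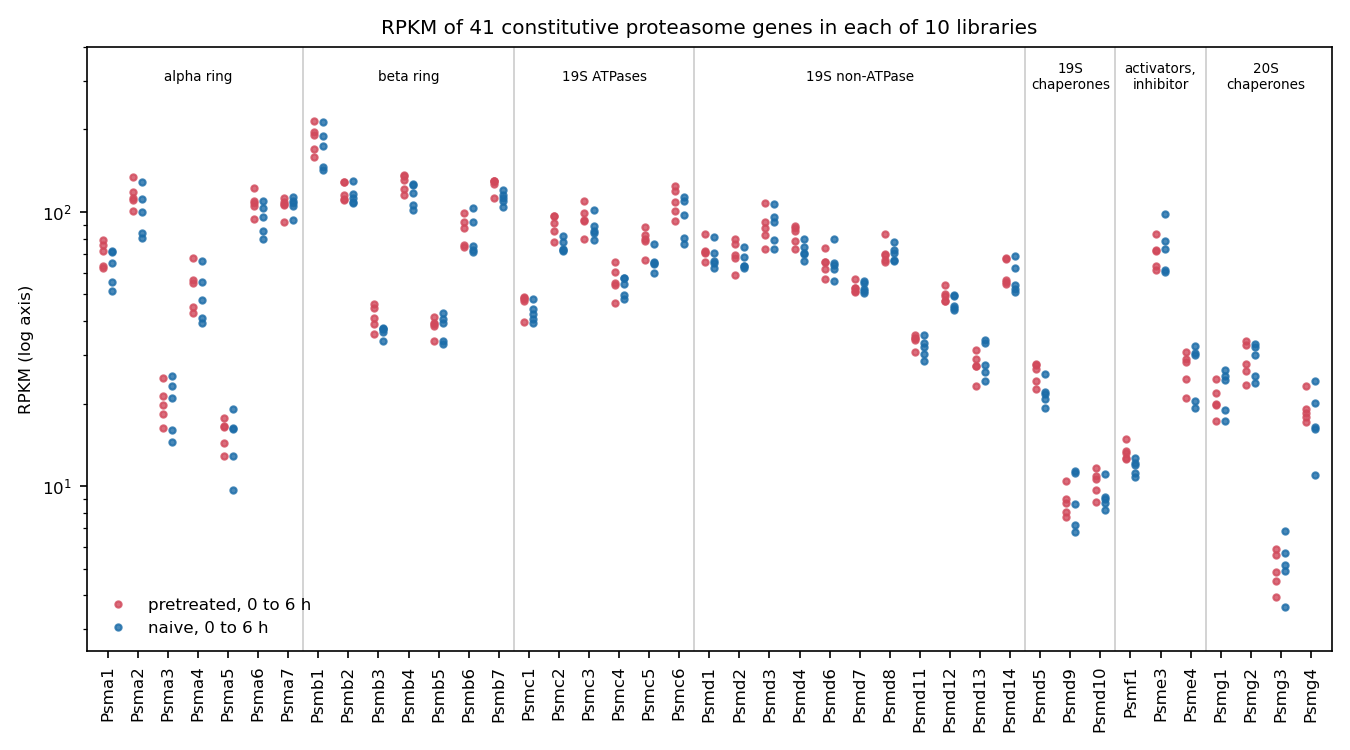
RPKM on a log axis of the 41 constitutive proteasome genes above 1 RPKM, 1 point per library, with the 5 pretreated libraries left of the 5 naive ones for each gene and the genes grouped by role. The arms overlap for each gene, with Psmb1 on top near 179 RPKM and Psmg3 at the bottom near 5.10 RPKM.

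After stimulation 6 of the 7 alpha ring genes rose, while in each other role at most 1 gene rose and at most 1 fell. The other roles are of unlike size. Of the 3 activator and inhibitor genes 66.7% passed, and of the 4 assembly chaperones of the 20S core 50%. The mean of 2, 4 and 6 h was set against 0 h over both arms with edgeR's quasi-likelihood test, in which the time points stand in for replicates, so that a p-value measures variation between time points and arms and not between cultures. Of the 41 genes 15 passed an adjusted p of 0.05, with 11 higher and 4 lower. In all genes tested 39.9% passed, 19.9% higher and 20% lower, so the share of the proteasome genes that passed was near the background. At an unadjusted p under 0.05 it was 19 of the 41, against 51.2% of all genes. The median log2 change was 0.11 in the 41 genes and -0.01 in all genes. The limma fit on log2(RPKM + 1), which keeps the scaling of the deposited values, also passed 15 genes (36.6%, against 41.9% of all genes). They were split into 9 higher and 6 lower. The count depended on single libraries. It was 0 without the naive 0 h library, where 8 of all genes tested passed, and 3 (7.32%, against 17.1% of all genes) without pretreated 0 h, namely Psma4, Psme4 and Psmg4. It was 4 (9.76%, against 26.5% of all genes) without naive 6 h, namely Psma3, Psma4, Psmc6 and Psme4, and 6 (14.6%, against 32.1%) without pretreated 2 h. It was 7 (17.1%) without naive 2 h and without naive 4 h, against 32.1% and 30.4% of all genes, and 9 (22%, against 34.4%) without pretreated 4 h. In these fits the share of the proteasome genes was below that of all genes. Psma3, Psma4, Psmc6 and Psme4 passed in each of the last 5 of these fits, while Psma1, Psma6, Psmb6, Psme3 and Psmg4 lost their calls in 10, 9, 9, 9 and 8 of 17 alternative settings.

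**Figure D2:**
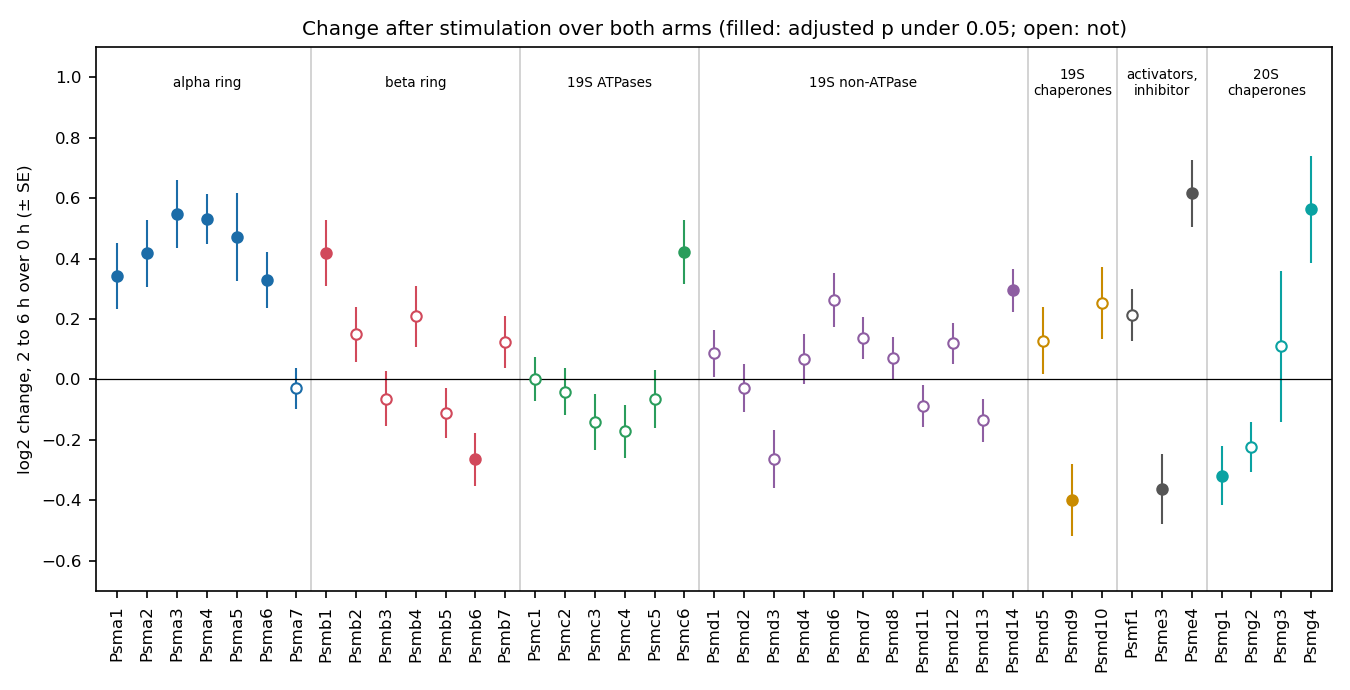
Log2 change of each gene from 0 h to the mean of 2, 4 and 6 h over both arms, with its standard error, by role; filled points passed an adjusted p of 0.05 in edgeR's quasi-likelihood test and open points did not. The alpha ring has 6 filled points between 0.33 and 0.55, and the 4 filled points below 0 are Psmb6, Psmd9, Psme3 and Psmg1.

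In the alpha ring, whose 7 subunits here close the barrel and dock the cap, 6 genes rose and 1, Psma7, did not pass. Psma3 rose by a log2 change of 0.55 ± 0.11 (SE; adjusted p = 0.0110 in edgeR's quasi-likelihood test). Its level was 16.2, 18.3, 19.8, 21.4 and 24.8 RPKM in pretreated cells at 0, 1, 2, 4 and 6 h, against 16.1, 14.4, 23.2, 21.0 and 25.3 RPKM in naive cells. Both arms were highest at 6 h, and each library from 2 h on was above both 0 h libraries. Psma4 (chr9:54950859-54958030, plus strand, mm10; 9 exons) rose by 0.53 ± 0.08 (SE; adjusted p = 0.00575). It stood at 42.7, 45.1, 54.9, 56.2 and 67.7 RPKM in pretreated cells, against 41.0, 39.2, 47.7, 55.6 and 66.1 RPKM in naive cells. The arms were again alike at 0 and 6 h, and the later libraries did not overlap those of 0 h. Its call held in 16 of 17 alternative settings, the exception being the fit without the naive 0 h library.

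The other risers of the ring had smaller changes. Psma5 was at 12.9, 14.3, 16.6, 16.4 and 17.7 RPKM in pretreated cells, against 12.8, 9.67, 16.1, 16.3 and 19.1 RPKM in naive cells, with its lowest value in the naive 1 h library. It rose by 0.47, Psma2 by 0.42, Psma1 by 0.34 and Psma6 by 0.33 on the log2 scale, with adjusted p between 0.0238 and 0.0441 in the same edgeR test. Psma2, the most abundant of the ring, was at 101, 110.4, 119, 113 and 134 RPKM in pretreated cells, against 84.1, 80.2, 99.6, 112 and 129 RPKM in naive cells. Here the naive 2 h library lay below the pretreated 0 h library, so the hours overlapped. Psma7 was at 106, 109, 107, 91.8 and 112 RPKM in pretreated cells, against 113, 109, 108, 93.4 and 105 RPKM in naive cells. It was lowest at 4 h in both arms and had a log2 change of -0.03 (adjusted p = 0.753 in edgeR's test). Summed over the ring, the level was 435, 479, 504, 468 and 555 RPKM in pretreated cells, against 408, 384, 469, 459 and 527 RPKM in naive cells. Pearson correlations of log2 levels are given as a description over the 10 libraries, which share arms, hours and depth. The median was 0.83 among the 21 pairs of alpha genes (range -0.31 to 0.94). It was 0.61 among the 19S ATPases and 0.31 among the 820 pairs of all 41 genes. These are the libraries in which the 6 alpha genes rose, so the value is no separate support.

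**Figure D3:**
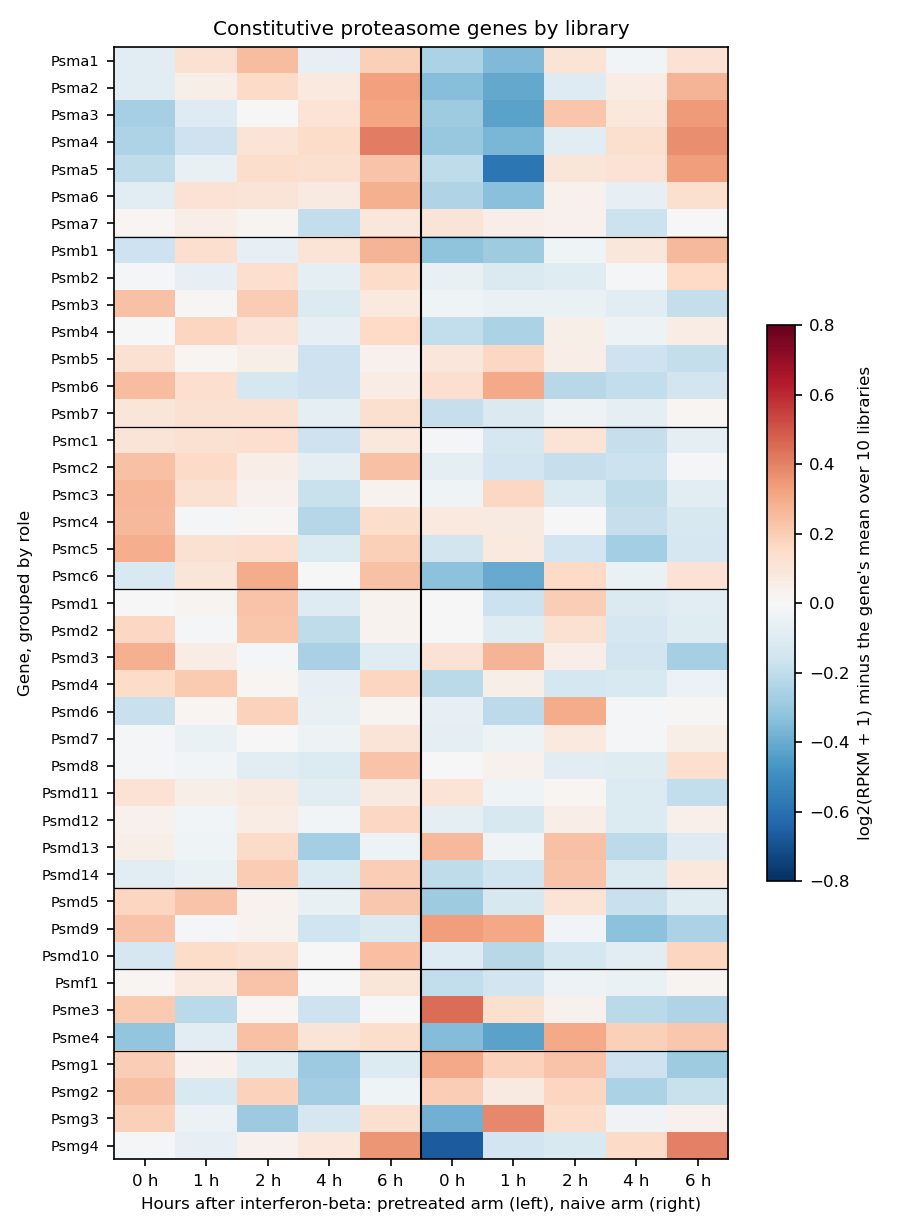
log2(RPKM + 1) of each gene minus its mean over the 10 libraries, with the pretreated libraries left and the naive libraries right, each from 0 to 6 h, and the genes grouped by role. The first 6 alpha genes and Psmb1 turn from blue at 0 h to red at 6 h in both arms, while Psmb6 and Psme3 turn the other way in the naive arm.

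The promoters of the alpha genes are shown because 6 of the 7 genes rose. RefSeq windows from 250 bases before to 50 after the transcription start (build GRCm38.p6, the mm10 sequence) were found for 35 of the 43 genes, 37 windows in all. Each window was searched on both strands, separately for each motif so that matches may overlap, for CCAAT, the box bound by NF-Y, for TGACNNNGC, the core of the antioxidant response element, for GAAANNGAAA, a form of the interferon-stimulated response element, and for TTCNNNGAA, the gamma-activated site. CCAAT was in 5 of the 8 alpha ring windows (62.5%) and in 13 of the 37 windows of all constitutive genes (35.1%). It was in 37.4% of 32851 windows genome-wide and in 38% of the windows of genes tested. The alpha windows with CCAAT were those of Psma1, Psma2, Psma3 and Psma7 and 1 of the 2 of Psma6, not the one at the start of the measured transcript. The windows of Psma4 and Psma5, which rose, held none, while Psma7, which has a match, did not pass. TGACNNNGC was in 0 of the 8 alpha ring windows. Such a match is a description of the letters in the window and not of binding. The 250 bases before the start of Psma2 (chr13:14612992-14613241, plus strand) and of Psma3 (chr12:70974373-70974622, plus strand) are printed with CCAAT in capitals, 54 and 139 bases before the start.
Psma2: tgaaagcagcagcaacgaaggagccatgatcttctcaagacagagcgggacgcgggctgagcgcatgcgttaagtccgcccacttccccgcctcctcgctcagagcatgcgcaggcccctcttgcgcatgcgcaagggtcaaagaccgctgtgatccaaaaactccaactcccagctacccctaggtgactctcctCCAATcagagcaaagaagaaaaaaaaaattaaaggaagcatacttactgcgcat
Psma3: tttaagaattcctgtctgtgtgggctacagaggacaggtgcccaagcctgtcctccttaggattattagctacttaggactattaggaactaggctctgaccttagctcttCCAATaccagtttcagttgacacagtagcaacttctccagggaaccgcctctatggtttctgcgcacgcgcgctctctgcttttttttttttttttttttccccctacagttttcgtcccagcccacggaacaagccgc

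In the beta ring 1 gene rose, 1 fell and 5 did not pass. Psmb1, a structural beta subunit, rose by a log2 change of 0.42 ± 0.11 (SE; adjusted p = 0.0230 in edgeR's test). Its level was 159, 195, 169.5, 192 and 215 RPKM in pretreated cells, against 142, 146, 174, 189.7 and 213 RPKM in naive cells, so that the 2 to 6 h libraries lay above both 0 h libraries. The gene that fell was Psmb6, which carries the caspase-like activity of the constitutive core, with a log2 change of -0.26 ± 0.09 (SE; adjusted p = 0.0470). It stood at 99.5, 91.8, 75.6, 74.3 and 87.2 RPKM in pretreated cells, against 91.7, 103, 71.4, 72.8 and 75.3 RPKM in naive cells. In each arm the 3 later libraries were below both 0 h libraries. That call was lost in 9 of 17 alternative settings, 8 of them fits without 1 library, with the same sign in all.

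The other catalytic subunits did not pass. Psmb5, with the chymotrypsin-like activity, was at 41.5, 38.3, 39.2, 33.8 and 38.9 RPKM in pretreated cells, against 40.5, 42.7, 39.4, 33.7 and 33.1 RPKM in naive cells (log2 change -0.11, adjusted p = 0.314 in edgeR's test). Psmb7, with the trypsin-like activity, was at 127, 129.6, 129.7, 113 and 130.1 RPKM in pretreated cells, against 105, 109.8, 115, 113 and 120.1 RPKM in naive cells (log2 change 0.12, adjusted p = 0.279). For Psmb5 the 0 h libraries lay above all libraries from 2 h on in the deposited scaling but not after rescaling by the trimmed mean of M values (TMM). Psmb4, a structural subunit and the second in level, was at 122, 137, 131, 116 and 136 RPKM in pretreated cells, against 106, 102, 125, 118 and 126 RPKM in naive cells, and had a log2 change of 0.21 (adjusted p = 0.135). Psmb2 and Psmb3, also structural, had log2 changes of 0.15 and -0.06.

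Set beside their induced counterparts, Psmb5 and Psmb6 were overtaken in level and Psmb7 was not. Psmb8, which takes the place of Psmb5, had 1.44, 1.77, 2.17, 3.67 and 3.56 times the RPKM of Psmb5 in pretreated cells at 0, 1, 2, 4 and 6 h, against 0.0114, 0.229, 0.872, 3.13 and 4.30 times in naive cells. Pretreated cells thus held more Psmb8 than Psmb5 transcript before stimulation and naive cells from 4 h on. Psmb9, the counterpart of Psmb6, had 0.338, 0.571, 0.952, 1.33 and 1.25 times the RPKM of Psmb6 in pretreated cells, against 0.0163, 0.110, 0.459, 1.2 and 1.56 times in naive cells. Psmb10, the counterpart of Psmb7, had 0.188, 0.255, 0.395, 0.605 and 0.688 times the RPKM of Psmb7 in pretreated cells, against 0.0508, 0.134, 0.307, 0.644 and 0.908 times in naive cells, and so stayed below it in all 10 libraries. Psmb8 itself was at 59.8 RPKM at 0 h and 139 RPKM at 6 h in pretreated cells, against 0.463 RPKM at 0 h and 142 RPKM at 6 h in naive cells.

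**Figure D4:**
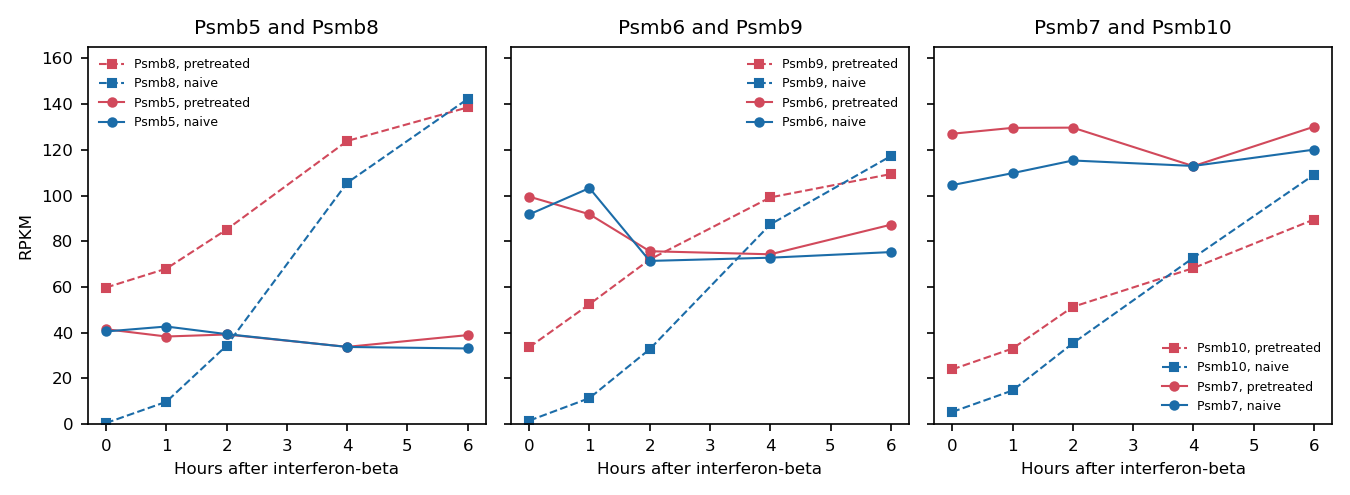
RPKM by hour of the constitutive catalytic subunits (circles, solid lines) and of the induced subunits that replace them (squares, dashed lines), with pretreated cells in red and naive cells in blue and 1 library per point. Psmb8 exceeds Psmb5 in pretreated cells at each hour and in naive cells at 4 and 6 h, and Psmb10 stays below Psmb7.

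The sequences before the starts of Psmb5 (chr14:54617996-54618245, minus strand), Psmb6 (chr11:70525107-70525356, plus strand) and, for contrast, the induced Psmb8 (chr17:34197945-34198194, plus strand) are shown 5′ to 3′ on the strand of the gene. Capitals mark TGACNNNGC in Psmb5 and Psmb6, 47 and 9 bases before the start, and TTCNNNGAA in Psmb8, 97 bases before it. TGACNNNGC was in 6 of the 37 constitutive windows (16.2%), those of Psmb5, Psmb6, Psmc6, Psmd9, Psmd12 and Psme4. It was in 12.4% of all windows, 14.45% of the windows of genes tested and 0 of 6 windows of immunoproteasome genes. TTCNNNGAA was in 2 constitutive windows (5.41%), against 8.30% of all windows, 6.86% of those of genes tested and 1 of the 6 immunoproteasome windows. GAAANNGAAA was in 4 constitutive windows (10.8%; Psmb3, Psmd4, Psmd9 and Psmg4), against 3.44% of all windows, 3.09% of those of genes tested and 1 of the 6.
Psmb5: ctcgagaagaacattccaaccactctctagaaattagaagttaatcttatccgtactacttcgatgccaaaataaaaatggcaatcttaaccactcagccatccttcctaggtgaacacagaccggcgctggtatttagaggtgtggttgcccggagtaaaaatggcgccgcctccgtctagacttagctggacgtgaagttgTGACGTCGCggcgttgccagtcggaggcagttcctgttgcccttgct
Psmb6: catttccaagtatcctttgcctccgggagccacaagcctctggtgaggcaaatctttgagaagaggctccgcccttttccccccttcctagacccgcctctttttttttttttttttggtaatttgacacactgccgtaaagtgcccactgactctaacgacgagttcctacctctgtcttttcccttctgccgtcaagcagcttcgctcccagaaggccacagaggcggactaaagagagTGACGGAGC
Psmb8: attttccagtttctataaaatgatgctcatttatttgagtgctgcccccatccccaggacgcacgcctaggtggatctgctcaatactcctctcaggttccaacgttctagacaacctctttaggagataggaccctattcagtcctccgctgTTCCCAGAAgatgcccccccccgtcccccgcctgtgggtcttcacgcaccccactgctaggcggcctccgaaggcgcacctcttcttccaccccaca

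Of the 6 ATPases that form the motor ring of the 19S cap, Psmc6 rose and 5 did not pass, with log2 changes of the 5 between -0.17 and 0.00. Psmc6 rose by 0.42 ± 0.11 (SE; adjusted p = 0.0201 in edgeR's test). It was at 92.8, 108, 125, 101 and 119 RPKM in pretreated cells, against 80.5, 76.1, 113, 97.3 and 109.6 RPKM in naive cells, so the 2 to 6 h libraries lay above both 0 h libraries. Psmc3, the next in level, was at 109, 98.9, 93.2, 80.0 and 92.6 RPKM in pretreated cells, against 88.6, 102, 84.0, 78.9 and 85.1 RPKM in naive cells, with overlapping hours (log2 change -0.14, adjusted p = 0.249). The 250 bases before the start of Psmc6 (chr14:45329574-45329823, plus strand) hold TGACNNNGC on the opposite strand, in capitals, 227 bases before the start.
Psmc6: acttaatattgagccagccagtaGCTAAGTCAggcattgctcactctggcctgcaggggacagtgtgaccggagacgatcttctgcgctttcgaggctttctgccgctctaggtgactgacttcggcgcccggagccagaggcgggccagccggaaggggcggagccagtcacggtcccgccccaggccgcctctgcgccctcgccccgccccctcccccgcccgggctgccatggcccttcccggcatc

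Among the 11 non-ATPase subunits of the cap, Psmd14 rose and 10 did not pass. Psmd14, the deubiquitinase that removes the ubiquitin chain as the substrate enters, rose by a log2 change of 0.29 ± 0.07 (SE; adjusted p = 0.0185 in edgeR's test). Its level was 55.4, 56.6, 67.8, 54.4 and 67.5 RPKM in pretreated cells, against 50.9, 52.5, 69.0, 54.1 and 62.3 RPKM in naive cells. In both arms it was high at 2 and 6 h, and the 4 h libraries lay between the 0 h ones. Psmd3, the most abundant of these subunits, was at 108, 92.1, 87.6, 73.6 and 82.3 RPKM in pretreated cells, against 95.8, 107, 91.7, 79.3 and 73.3 RPKM in naive cells. Its 2 to 6 h libraries lay below both 0 h libraries, and its log2 change of -0.26 missed the threshold in edgeR (adjusted p = 0.0656) and passed it in DESeq2 and limma. Psmd6 had the opposite pattern, with its later libraries above 0 h (log2 change 0.26, adjusted p = 0.0502 in edgeR). Psmd6 passed in DESeq2 and not in limma. Psmd4, a ubiquitin receptor, was at 85.4, 89.2, 78.1, 73.6 and 87.1 RPKM in pretreated cells, against 66.4, 79.9, 70.0, 70.7 and 74.7 RPKM in naive cells, the lowest of which was naive 0 h. Its log2 change after stimulation was 0.07, and those of the scaffold subunits Psmd1 and Psmd2 were 0.09 and -0.03.

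The assembly chaperones did not move as a group. Of the chaperones of the 19S cap, Psmd9 fell by a log2 change of 0.40 ± 0.12 (SE; adjusted p = 0.0336 in edgeR's test), and Psmd5 and Psmd10 did not pass. Psmd9 was at 10.4, 8.66, 8.94, 7.74 and 8.01 RPKM in pretreated cells, against 11.3, 11.1, 8.62, 6.80 and 7.21 RPKM in naive cells, below both 0 h libraries in each library from 2 h on. In the annotation it shares 1849 bases of exon with the antisense gene Gm26745, and since strand use is not given, their reads cannot be told apart. Psmd5 was at 26.8, 27.9, 24.2, 22.7 and 27.7 RPKM in pretreated cells, against 19.2, 21.6, 25.7, 20.8 and 22.1 RPKM in naive cells, with overlapping hours. Of the chaperones of the 20S core, Psmg4 rose and Psmg1 fell. Psmg4 was at 17.8, 17.1, 18.4, 19.1 and 23.2 RPKM in pretreated cells, against 11.0, 16.1, 16.5, 20.2 and 24.1 RPKM in naive cells (log2 change 0.56 ± 0.18 SE, adjusted p = 0.0413). Its log2 change was 0.24 without the naive 0 h library and 0.93 without pretreated 0 h. The naive 0 h library was the lowest, and the later naive 2 h library lay below pretreated 0 h. Psmg1 was at 24.6, 21.8, 19.9, 17.2 and 19.7 RPKM in pretreated cells, against 26.5, 24.4, 25.1, 18.9 and 17.3 RPKM in naive cells (log2 change -0.32 ± 0.10 SE, adjusted p = 0.0365), with naive 2 h above pretreated 0 h. Psmg2, the partner of Psmg1 in alpha ring assembly, was at 33.8, 26.2, 32.6, 23.4 and 27.9 RPKM in pretreated cells, against 32.9, 30.1, 32.3, 23.9 and 25.1 RPKM in naive cells. Its log2 change of -0.22 did not pass in edgeR (adjusted p = 0.0670) or in DESeq2, and passed in limma. Both arms were lowest at 4 h.

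The other activators moved in opposite directions. Psme4, the activator PA200 (chr11:30771775-30880361, plus strand, mm10; 47 exons), had the largest change of the 41 genes, a rise of 0.62 ± 0.11 on the log2 scale (SE; adjusted p = 0.00787 in edgeR's test). It was at 20.9, 24.5, 31.0, 28.2 and 29.0 RPKM in pretreated cells, against 20.4, 19.2, 32.5, 30.0 and 30.5 RPKM in naive cells. Each arm stepped up at 2 h and stayed there, without overlap with 0 h, and the call held in 16 of 17 alternative settings, being lost without the naive 0 h library. Psme3, the nuclear activator PA28-gamma, fell by 0.36 ± 0.12 (SE; adjusted p = 0.0425). It was at 83.0, 61.6, 72.4, 63.7 and 71.8 RPKM in pretreated cells, against 98.1, 78.6, 73.2, 61.6 and 60.5 RPKM in naive cells, and its later libraries were all below 0 h. With 4 and 6 h set against 0 and 1 h, its log2 change was -0.23 and did not pass. The induced activator genes Psme1 and Psme2, given for comparison, rose by 1.06 and 1.29 on the log2 scale (adjusted p = 0.0311 and 0.0103). Psmf1, the inhibitor PI31, had a log2 change of 0.21 and did not pass (adjusted p = 0.0856).

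In the deposited scaling the 2 to 6 h libraries lay above both 0 h libraries in 9 of the 41 genes and below both in 7, against 17.9% and 22.9% of all genes tested. After TMM rescaling, these counts were 13 above and 4 below, against 21.3% and 19.3% of all genes. That rescaling moved the median of all genes between naive 6 and 0 h by 0.09 on the log2 scale, and by less in the other comparisons of 2 libraries. Whether reads were counted by strand is not stated, so reads of exons shared with genes on the opposite strand cannot be told apart, which touches Psma4, Psma5, Psmb7, Psmc3, Psmd1, Psmd3, Psmd9 and Psmd13, and reads of Psmb5, Psmb6 and Psmb7 cannot be told apart from those of their processed pseudogenes. In these bulk libraries a change of RNA per cell and a change in the share of cells that express a gene cannot be told apart.

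At 1 h no constitutive proteasome gene passed against 0 h. In edgeR's test 0 of the 41 genes and 0 of the 12168 genes tested (0%) passed, while 2 of the 41 and 11.4% of all genes had an unadjusted p under 0.05. DESeq2 passed 236 genes and limma 5, in both cases with 0 of the 41. The smallest adjusted p among the 41 was 0.418, for Psme3. These p-values do not show that the genes were level at 1 h.

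Between the arms no gene of the 41 passed. In edgeR's test, with time point as a term, 0 of 41 passed, against 1.27% of all genes (0.386% higher and 0.879% lower), and 7 of the 41 had an unadjusted p under 0.05, against 21.9% of all genes. Psmc2 came nearest, with a log2 difference of 0.23 ± 0.06 (SE; adjusted p = 0.101), and Psmc5 next with 0.24 ± 0.07 (SE; adjusted p = 0.135). Psmc2 was at 96.6, 91.2, 85.1, 77.4 and 96.5 RPKM in pretreated cells, against 77.7, 73.4, 72.0, 72.5 and 81.5 RPKM in naive cells, higher in the pretreated library at each of the 5 hours, although the ranges of the arms overlapped. Psmc5 was at 88.5, 78.6, 79.5, 66.9 and 82.8 RPKM in pretreated cells, against 65.2, 76.3, 64.9, 59.8 and 65.8 RPKM in naive cells. Of the 41 genes 0 had all pretreated libraries above or all below the naive ones, against 1.39% of all genes above and 0.871% below. Without 1 library, edgeR passed 2 or 7 of all genes in 8 of 10 fits, 175 without pretreated 4 h and 159 without naive 4 h. DESeq2, which passed 1371 genes in all, passed both Psmc2 and Psmc5, and limma passed 0 of the 41. On simulated counts the edgeR test recovered 4% of genes changed 1.2-fold, so these misses do not show that the arms were alike.

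The differences between the arms were small. At 0, 1, 2, 4 and 6 h, 32, 27, 26, 23 and 36 of the 41 genes were higher in the pretreated than in the naive library, against 50%, 52.9%, 45.3%, 48.1% and 61.6% of all genes tested. With TMM library sizes the 36 at 6 h became 27, against 45.2% of all genes, and the 26 at 2 h became 31, against 48.9%. Psma2, Psma4, Psma6, Psmc1, Psmc2, Psmc5, Psmc6, Psmd4, Psmd11, Psmd12 and Psmf1, 11 of the 41 genes, were above naive at 5 of 5 hours, as were 10.8% of all genes, and 0 were below at 5 of 5, as were 9.79% of all genes. With TMM library sizes the counts were 10 above and 1 below, against 9.29% and 12.6% of all genes. The median log2 difference, pretreated minus naive, of the 41 genes was 0.12, 0.11, 0.04, 0.01 and 0.12 at 0, 1, 2, 4 and 6 h, against 0.00, 0.02, -0.03, -0.01 and 0.05 in all genes tested. The TMM value at 6 h was 0.04. At 0 h the 6 ATPases had a median of 0.25 and a range of 0.11 to 0.43, all higher in pretreated cells. All 7 beta ring genes were also higher there, by 0.03 to 0.28. The 4 chaperones of the 20S core had a larger median of 0.30, with a range of -0.10 to 0.65. At 1 h the alpha ring had a median of 0.45, with 5 of its 7 genes at least 1.2-fold higher, and Psma5 furthest at 14.3 RPKM in the pretreated library and 9.67 RPKM in the naive one. Counted at 1.2-fold or more, 9 of the 41 genes were higher and 0 lower in pretreated cells at 0 h, against 19.7% and 17.7% of all genes. At 1 h 12 were higher and 3 lower, against 19.7% and 17.6% of all genes, and at 2 h 3 were higher and 2 lower, against 15.9% and 18.5%. At 4 h 0 were past 1.2-fold in either direction, against 6.71% of all genes higher and 7.14% lower. At 6 h 5 were higher and 0 lower, against 13.5% and 6.94% of all genes. The widest difference of all was that of Psmg4 at 0 h, 0.65 on the log2 scale. The pretreated 0 and 1 h libraries also had the most Rn45s, and pretreated cells less of the summed fibroblast markers at each hour; their part in these differences was not tested. Without the 0 and 1 h libraries of both arms, an alternative chosen after seeing the data, 0 of the 41 and 2 of the 12168 genes tested passed, so that fit says little of the 41.

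**Figure D5:**
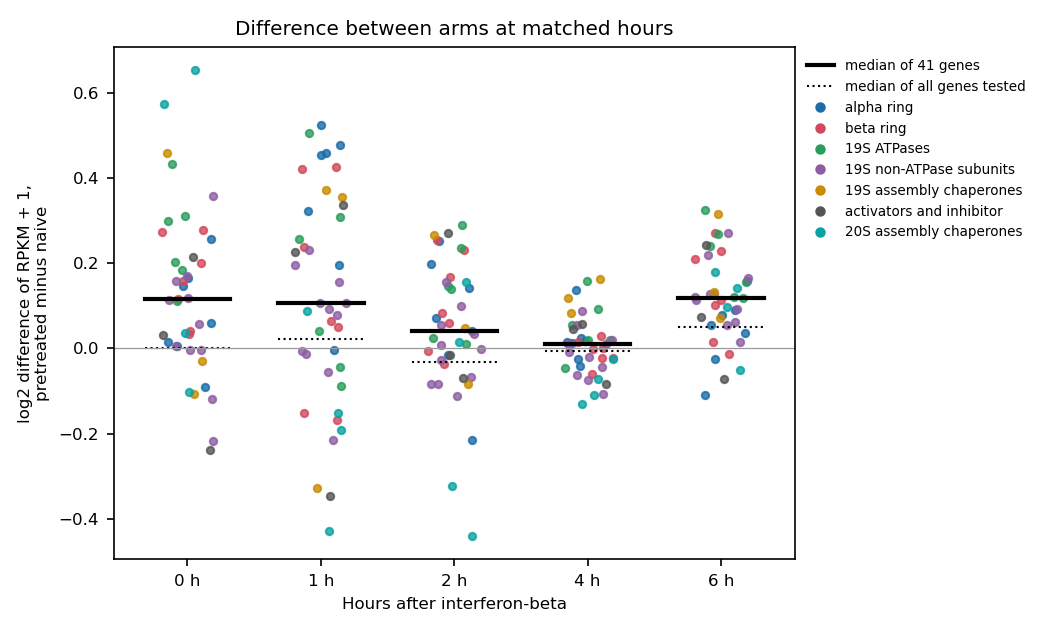
Log2 difference of RPKM + 1, pretreated minus naive, of each of the 41 genes at each hour, coloured by role, with the median of the 41 genes (solid line) and of all genes tested (dotted line). The median of the 41 genes lies at 0.12 at 0 h and 0.01 at 4 h, where the points are closest together.

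Whether the change after stimulation differed between the arms was tested with a term for arm by stimulation. In edgeR's test 0 of the 41 genes and 0 of all genes (0%) passed, and 2 of the 41, Psmg4 and Psmg3, had an unadjusted p under 0.05, as had 6.09% of all genes. Their adjusted p was 0.732 and 0.736. DESeq2 passed 133 genes and limma 15, none of them among the 41. With 3 residual degrees of freedom, a p that misses the threshold does not show that the arms changed alike.

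Genes that work beside the particle gave a mixed picture in the test of 2 to 6 h against 0 h. In all genes tested 39.9% passed this test, 19.9% higher and 20% lower. Of 9 genes for associated proteins, 5 rose and 1 fell (66.7% passed). AI314180, the mouse gene for the proteasome adaptor ECM29, rose by 0.76 ± 0.11 (SE; adjusted p = 0.00547 in edgeR's test), and was at 39.9, 43.4, 61.6, 66.5 and 60.3 RPKM in pretreated cells, against 39.2, 35.7, 60.1, 69.9 and 66.0 RPKM in naive cells. Akirin2, which brings proteasomes into the nucleus, rose by 0.43, the deubiquitinase Usp14 by 0.39, the maturation factor Pomp by 0.36 and Txnl1, a thioredoxin-like protein of the cap, by 0.24 on the log2 scale, while the ubiquitin receptor Adrm1 fell by 0.38. Of 9 genes listed as regulators of the proteasome or of its genes, 3 rose and 0 fell (33.3% passed). Mafk, a partner of the factor encoded by Nfe2l1, rose by 1.72, Ngly1, which activates that factor, by 0.56, and Zfand5 by 0.44. Nfe2l1 itself did not pass, with a log2 change of -0.02 (adjusted p = 0.835). It was lowest at 2 h in both arms, at 68.4 RPKM in pretreated and 69.5 RPKM in naive cells. Among the genes for shuttles, which bring substrates to the particle, Ubqln4 at -0.58, Bag6 at -0.54, Ubqln2 at -0.54 and Rad23b at -0.32 fell. Of the 2 genes for ubiquitin activation neither passed. Of the 5 immunoproteasome genes 4 rose, with Psmb9 at 2.94, and Psmb8, which was far apart between the arms at 0 h, did not pass (log2 change 2.76 ± 1.36 SE, adjusted p = 0.142).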

How the data were processed

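Each of the 10 libraries (1 per arm and hour) was read from 1 deposited table of 30646 RefSeq transcripts on mm10. Per the file headers, the authors deposited for each library a raw tag count and an RPKM value per transcript. For the 10637 transcripts above 5 RPKM everywhere, RPKM was the count times fixed library and transcript factors, to within 0.000167 (log2). The submitters' processing notes name Bowtie, TopHat and Cufflinks 1.2.1, with no role. The counting tool, the strand and reads with several alignments were not given in the sources used here. Rows without a gene, 15 in all, held 0.0157% to 0.0193% of the counts and were left out, and for 4306 symbols with several rows the row of highest mean RPKM was kept.

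Tests used edgeR 4.0.16 (glmQLFit and glmQLFTest, TMM library sizes, R 4.3.3) on the counts of 12168 genes that reached 1 RPKM in 2 or more libraries, with time point and arm as terms, leaving 4 residual degrees of freedom. A term for arm by stimulation left 3. The SE given with edgeR values is the absolute log2 change divided by the square root of the test's F statistic. P-values were adjusted by Benjamini-Hochberg over all genes tested. Differences between single libraries were taken on log2(RPKM + 1), which understates the change of low genes, and have no test. Each fit was also run on simulated counts in which 200 of the 12168 genes were changed. At 1.2-fold, 4% of the changed genes were recovered between the arms and 0% in the other tests. At 1.5-fold it was 68% between the arms, 28% for 2 to 6 h, 20% for 1 h and 0% for arm by stimulation. The last recovered 2% at 2-fold. A miss at such sizes does not show that a gene was level. In the data 39.9% of genes passed for 2 to 6 h, so the adjusted threshold was easier to pass than in the simulation. Psmd14 passed there at 1.23-fold, so the simulated rates do not carry over to that test. Alternatives were DESeq2 1.42.0, limma 3.58.1 on log2(RPKM + 1) and log2(RPKM + 0.1), no filter and a filter at 5 RPKM, counts summed over rows, other contrasts, TMM library sizes for RPKM, and leaving out each library. Genes named in full were those past the threshold (at most 6 per test by size of change), the 2 of highest mean RPKM of each role, the extremes between arms and those below the filter. Others given in full were chosen after their values were seen. The genes, lists and roles were chosen with earlier results of these data known. Of the associated genes, Paaf1 was not matched in the table. Some genes of the lists outside the proteasome are not reported here, so the shuttle genes are given without a count.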

Additional observations from a re-analysis of the deposited data

Results flagged for a closer look

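Psmg3, a chaperone of 20S core assembly, moved in opposite directions from the single 0 h library of each arm. Every pretreated library from 1 to 6 h was below pretreated 0 h, with a median log2 difference of -0.28, and every naive library from 1 to 6 h was above naive 0 h, with a median log2 difference of 0.47. Its level was 5.88, 4.85, 3.93, 4.49 and 5.60 RPKM in pretreated cells at 0, 1, 2, 4 and 6 h, against 3.63, 6.87, 5.69, 4.92 and 5.17 RPKM in naive cells. All differences within an arm were taken from its 1 library at 0 h, so they are not separate observations. Naive 0 h, at 3.63 RPKM, was the lowest of the 10 libraries. From 1 h on the arms overlapped, at 3.93 to 5.60 RPKM in pretreated and 4.92 to 6.87 RPKM in naive cells. Psmg3 was flagged for its opposite movement from 0 h, which by itself was not tested. The edgeR term for arm by stimulation gave a log2 difference of -0.98 ± 0.32 (SE) with an adjusted p of 0.736. Psmg3 was the lowest of the 41 constitutive genes, with as few as 275 counts in a library, and it shares 280 bases of exon with Gm26938 on the same strand, whose reads cannot be told apart from its own.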

How the results depend on the processing

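No paired analysis was possible because replicate numbers pair no libraries, with 1 library per arm and hour; the arms were matched by hour through the time term, and without that term 0 of the 41 and 9 of all genes passed. The 15 called genes kept the sign of their change in all 17 alternatives, while 10 of 91 medians by role and pair of libraries, at most 0.09 in size as deposited, changed sign with TMM library sizes. For 2 to 6 h against 0 h the 15 calls became 17 with DESeq2 (41.5%, against 46.2% of all genes) and 11 without a filter. They were 15 or 16 in the other complete fits. Of these, 4 and 6 h against 0 and 1 h gave 16 (39%, against 42.4% of all genes). Both fits without a 1 h library gave 17 (41.5%, against 41% and 40.8% of all genes). Leaving out 1 library gave 0 to 17 calls, with the fewest without naive 0 h, where 8 of all genes passed; the change of Psma4 stayed between 0.45 and 0.63 and that of Psme4 between 0.53 and 0.65. Between the arms DESeq2 called 2 genes, Psmc2 and Psmc5, against 0 in edgeR, and leaving out 1 library gave 0 to 0, with 2 or 7 of all genes in 8 of these 10 fits, which shows no stability. For 1 h against 0 h and for arm by stimulation, leaving out 1 library also gave 0; arm by stimulation could not be fitted without either 0 h library. With TMM library sizes the summed level at naive 6 h moved to 455 RPKM for the 19S ATPases (434 as deposited) and to 2670 RPKM for all constitutive genes (2551 as deposited), with the other sums within their spread. Each arm and hour had 1 library, so the spread between cultures was not measured.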
